A study of Mus musculus with 2 samples.

Results

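Collagen and laminin chain genes were taken as every gene whose symbol was Col, a number, the letter a and a number, or Lama, Lamb or Lamc and a number, and their transcripts were followed to the islet cells that carried them. The rule gave 55 of 31053 genes, 44 for collagen and 11 for laminin chains, and used no measured value. Col4a3bp, which encodes a ceramide transporter, does not have such a symbol and was left out. Over the kept cells of both libraries, 35 chain genes had at least 50 transcripts counted by unique molecular identifier (UMI). Another 11 had 10 to 49, namely Col4a5 (48), Col12a1 (46), Col6a4 (42), Col28a1 (39), Col25a1 (37), Lamc3 (36), Col7a1 (34), Col11a1 (25), Col23a1 (16), Col9a3 (15) and Col6a5 (14). A further 6 had 1 to 9 (Col19a1, Col4a6, Col22a1, Col2a1, Lama1 and Col10a1), and Col9a1, Col17a1 and Col24a1 had 0.

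Pancreatic islets came from wild-type C57BL/6J female mice. Multipara mice were 9 weeks old at the start, went through 3 successive pregnancies and gave islets 3 weeks after the last delivery, and virgin controls were matched for age. In both groups the islets stood for 30 minutes in medium with serum and were dissociated with 0.25% trypsin, and the RNA was tagged at its 3′ end in droplets. Each group was 1 library, and the labels do not say how many mice it pooled, so the intervals given here cover counting error only and no difference between the groups could be tested.

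Collagens are trimers of alpha chains. Fibrillar collagens (types I, III, V, XI and others) form the fibres of connective tissue and are made mainly by fibroblasts, whereas type IV collagen forms the sheet of basement membranes together with laminins, each a trimer of an alpha, a beta and a gamma chain. In islets, basement membrane lies along the capillaries, and rodent beta cells are thought to rely on endothelial cells for much of the laminin and type IV collagen that they touch.

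Cells were clustered without the 55 chain genes and clusters were named from markers. All paired values from here on are virgin first and multipara second. Of 4330 and 3330 kept cells, 267 and 240 were endothelial-like, 63 and 64 pericyte-like, 64 and 6 fibroblast-like and 12 and 4 Schwann-like. The endocrine cells were 1810 and 1477 beta-like, 1064 and 680 alpha-like and 476 and 366 delta-like cells, and 88 and 89 cells of a cluster led by Ppy and Pyy. All 12 endothelial, 12 pericyte and 11 fibroblast markers had UMIs in the class of their name. Lymph node reticular markers (Ccl19, Ccl21a, Cxcl13 and Il7) had 3670 UMIs in the virgin fibroblast-like cells and 0 in the multipara ones, so these cells differed in kind as well as in number, and every share that rests on them carries that difference. The kept cells had a median of 17178.5 and 18292.5 UMIs, and 7 barcodes occurred in both libraries.

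Sequence at a few gene starts is shown for the chains on which the results turn. Col4a1 (chr8:11198423-11312826, minus strand) and Col4a2 (chr8:11312805-11449287, plus strand) run head to head in GRCm38, with starts 21 bases apart, and the stretch between them is given. Col1a2 and Col3a1 are shown because both were high in fibroblast-like cells and Col1a2 without Col3a1 was counted in alpha-like cells, and Col6a3 because beta-like cells held it. The letters TATAAA and CCAAT were searched on both strands in the 250 bases before each start, and capitals mark TATAAA. For Col1a2, only the longest stretch outside annotated exons is printed. CCAAT was found for Col1a2, Col4a1 and Col4a2, outside the stretches printed for them, and not for Col3a1 or Col6a3. All come from RefSeq, GRCm38.p6.
Col4a1-Col4a2 shared start (chr8:11312805-11312826, plus strand): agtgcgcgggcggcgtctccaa
Col1a2 (chr6:4505370-4505492, plus strand): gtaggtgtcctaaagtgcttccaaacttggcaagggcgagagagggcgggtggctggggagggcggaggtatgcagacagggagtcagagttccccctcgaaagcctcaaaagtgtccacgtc
Col3a1 (chr1:45311288-45311537, plus strand): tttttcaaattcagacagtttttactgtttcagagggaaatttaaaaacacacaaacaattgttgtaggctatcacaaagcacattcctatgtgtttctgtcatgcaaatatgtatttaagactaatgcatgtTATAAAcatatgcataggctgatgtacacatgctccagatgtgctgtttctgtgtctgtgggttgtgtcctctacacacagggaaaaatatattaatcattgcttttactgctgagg
Col6a3 (chr1:90843972-90844221, minus strand): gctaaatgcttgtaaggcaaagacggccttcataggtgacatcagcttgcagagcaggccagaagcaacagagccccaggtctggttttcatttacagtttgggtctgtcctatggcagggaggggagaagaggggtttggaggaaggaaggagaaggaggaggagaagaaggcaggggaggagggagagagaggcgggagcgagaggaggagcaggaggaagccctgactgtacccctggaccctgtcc
TATAAA was in 12.4% of all 32851 start windows and CCAAT in 33.8%. Of the 55 chain genes, 40 had a window in the table, 14 of them with CCAAT and 5 with TATAAA.

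Type IV collagen came mainly from endothelial-like cells. They held 3772 of 5557 type IV chain UMIs in the virgin library, or 67.9% (95% counting interval 66.6 to 69.1), and 4348 of 5326 in the multipara library, or 81.6% (80.6 to 82.7), while making up 6.17% and 7.21% of the kept cells. Beta-like cells held 13.9% and 10.6%, pericyte-like cells 7.34% and 5.95%, and fibroblast-like cells 8.26% and 0.507%. As counts per 1000000 UMIs of the class (CPM), the summed type IV level was 2608 and 2741 in endothelial-like, 1916 and 1432 in pericyte-like, 913 and 1156 in fibroblast-like and 14.96 and 12.1 in beta-like cells. Thus all 3 vascular and stromal classes carried these chains at a high level, and beta-like cells carried them at a low level in a class that made up 41.8% and 44.4% of cells.

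**Figure D1:**
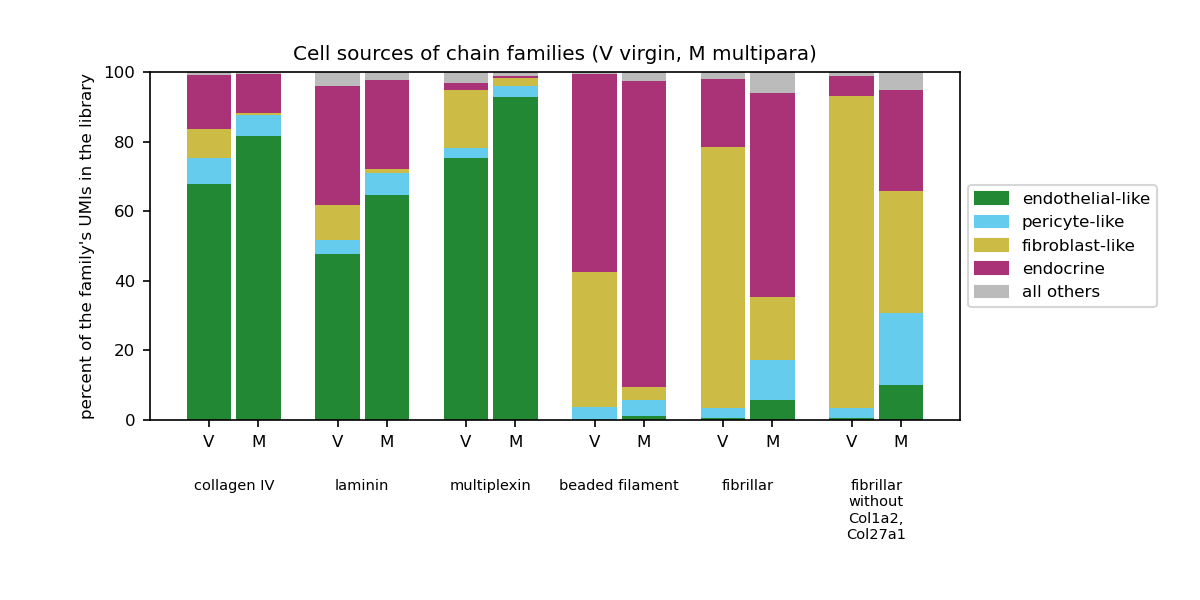
Stacked bars give, for each chain family and library (V virgin, M multipara), the percent of the family's UMIs found in endothelial-like, pericyte-like, fibroblast-like, endocrine and all other cells. Endothelial-like cells hold 67.9% and 81.6% of type IV collagen, and fibroblast-like cells hold 74.95% of the fibrillar chains with 64 virgin cells and 18.1% with 6 multipara cells.

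Col4a1 and Col4a2, the chains of the common type IV trimer, made up nearly all of the endothelial total. Col4a1 had 2315 and 2686 endothelial UMIs, or 1600 and 1693 CPM, and Col4a2 had 1379 and 1543, or 953 and 973 CPM. Both were seen in most cells, Col4a1 in 92.5% of each library. The log2 ratio of multipara over virgin was 0.08 for Col4a1 (0.00051 to 0.16) and 0.03 for Col4a2 (-0.08 to 0.13), so neither differed by more than a small fraction. Keeping the called doublets moved the ratio of the summed type IV chains from 0.07 to 0.20.

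Col4a3 and Col4a4, which pair in the basement membrane of the kidney filter, were low but present in vascular cells. In endothelial-like cells Col4a3 was ahead, with 53 and 70 UMIs against 24 and 47 of Col4a4. In pericyte-like cells Col4a4 was ahead, with 36 and 29 UMIs against 16 and 11. Pericyte-like cells thus had 2.25 (1.22 to 4.34) and 2.64 (1.28 to 5.85) Col4a4 UMIs per Col4a3 UMI, and endothelial-like cells 0.453 (0.267 to 0.747) and 0.671 (0.454 to 0.986), intervals that did not overlap in either library.

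Endothelial-like cells also held the largest share of laminin UMIs, 47.6% (45.7 to 49.5) and 64.6% (62.5 to 66.6). Lamb1 and Lamc1, a beta and a gamma chain of many laminins, had 339 and 347 and 337 and 333 UMIs, so that 1.01 and 1.04 Lamb1 UMIs were counted per Lamc1 UMI. Among alpha chains, Lama4, a chain of endothelial basement membranes, had 239 and 261 UMIs, Lama3, known from epithelial laminin, 119 and 145, and Lama5, the other vascular chain, 86 and 77. Lama2, the chain of muscle and nerve laminin, had 2 and 8. The endothelial set was therefore Lama4, Lama3 and Lama5 with Lamb1, Lamb2 (176 and 184) and Lamc1.

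Pericyte-like cells had a laminin set different from that of endothelial-like cells and in part shared with fibroblast-like cells. Lamb2 led with 42 and 61 UMIs against 8 and 7 of Lamb1, and Lama2 had 17 and 24 against 13 and 9 of Lama4. Lama3 had 0 UMIs in either library, among 212911 and 221392 UMIs of the class. Lamc1 had 17 and 21, and Lamc3, a rare gamma chain, 9 and 9 of its 36 UMIs. In sum, laminins stood at 526 and 605 CPM in pericyte-like and 898 and 855 CPM in endothelial-like cells. Fibroblast-like cells had 275 and 26 laminin UMIs among 502512 and 23355 UMIs of the class. Their Lama2 was at 52 and 8 UMIs against 22 and 2 of Lama4, Lama3 at 0 and 0 and Lamc3 at 15 and 2. Their Lamb2 was at 63 and 1 UMIs against 48 and 9 of Lamb1.

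Col13a1 and Col15a1 had most of their UMIs in endothelial-like cells as well. Col15a1, a multiplexin that bridges basement membrane and fibres, had 549 and 624 endothelial UMIs, or 380 and 393 CPM. In fibroblast-like cells it had 115 and 14 UMIs, or 229 (189 to 275) and 599 (328 to 1006) CPM, so its level there was of like size. Col13a1, a membrane-spanning collagen, had 629 and 655, or 435 and 413 CPM, and 0 UMIs in fibroblast-like cells of either library. Col18a1, the parent of endostatin, had 23 and 11 endothelial UMIs and its highest level in the few Schwann-like cells, with 15 and 4 UMIs (361 and 273 CPM). Of all multiplexin UMIs, 75.4% and 92.8% were endothelial.

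**Figure D2:**
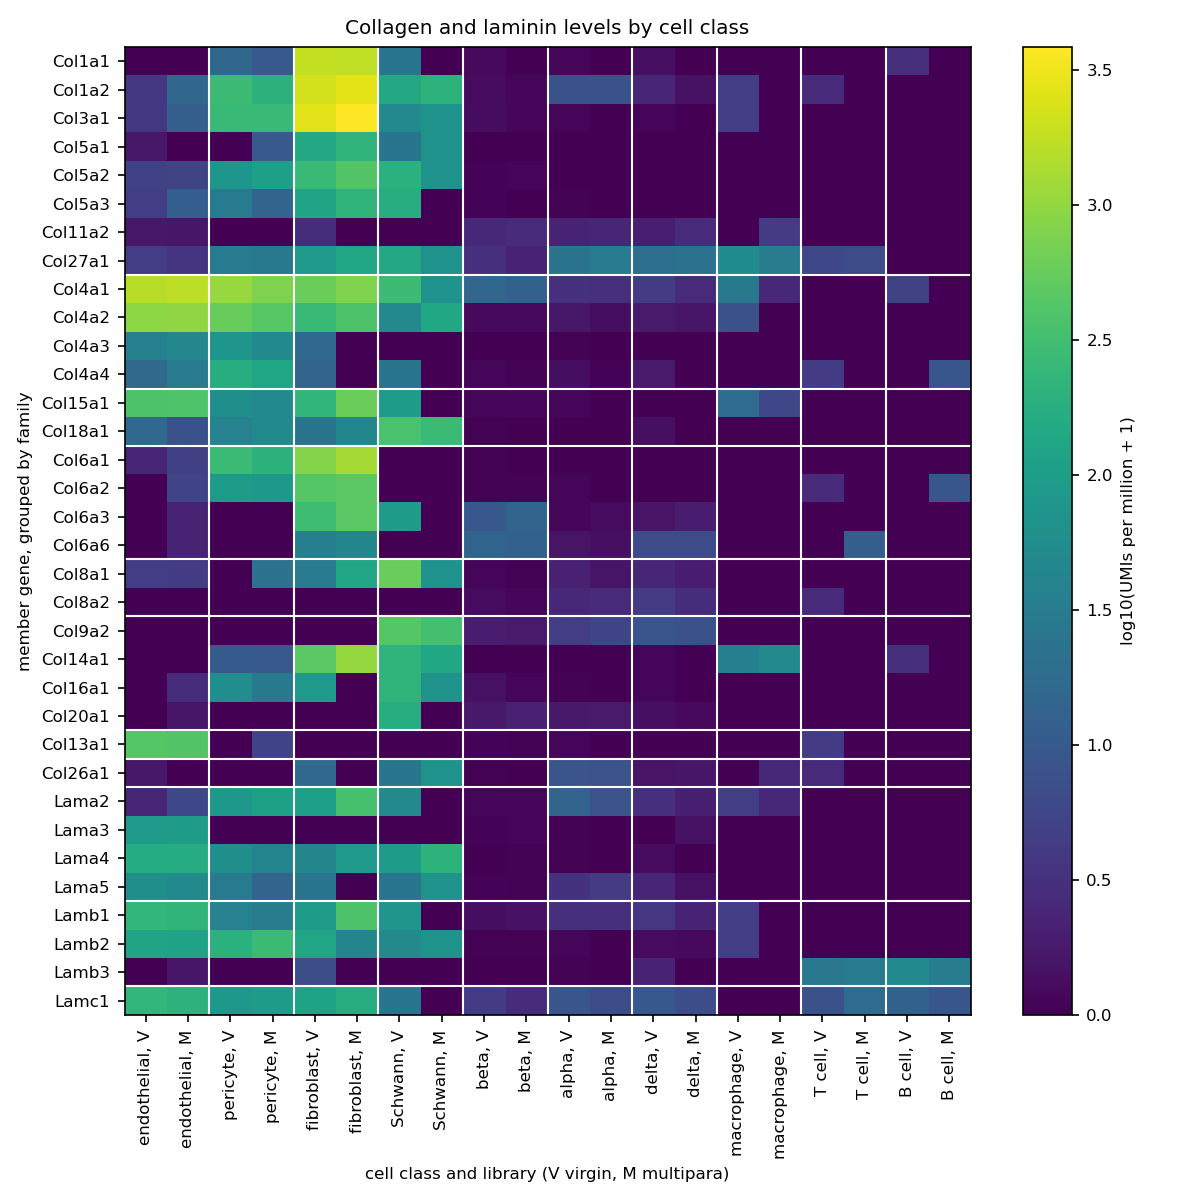
Each tile gives the level of a chain gene with at least 50 UMIs, as log10(CPM + 1), in a cell class of the virgin (V) or multipara (M) library. Most type IV and laminin chains are highest in endothelial-, pericyte- and fibroblast-like cells, and most fibrillar chains in fibroblast-like cells. Beta-like cells show Col4a1, Col6a3 and Col6a6 while alpha-like cells show Col27a1, Lama2, Col26a1 and Col1a2.

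Fibrillar chains were highest in fibroblast-like cells, where the 11 genes summed to 7289 and 9377 CPM, against 695 and 623 in pericyte-like and 18.0 and 44.1 in endothelial-like cells. The fibroblast-like share of fibrillar UMIs was 74.95% (73.7 to 76.2) in the virgin library with 64 cells and 18.1% (16.0 to 20.4) in the multipara library with 6. The summed level had a log2 ratio of 0.36 (0.16 to 0.56) in CPM, but scaling by trimmed means (TMM) turned Col1a2 from 0.32 to -0.39 and Col3a1 from 0.54 to -0.17, so no direction is given for the level. Fewer cells recovered at dissociation, fewer cells in the islets and other tissue taken along with the virgin islets cannot be told apart here. Only the virgin fibroblast-like cells had reticular marker UMIs, and T cell-like cells numbered 151 and 43 and B cell-like cells 143 and 40. The main chains were Col3a1 of type III collagen (1329 and 90 UMIs) and Col1a2 (1117 and 65) and Col1a1 (899 and 41) of type I. The type V chains Col5a2, Col5a1 and Col5a3 had 136 and 10, 74 and 5, and 62 and 5.

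Type VI collagen in its usual form, Col6a1, Col6a2 and Col6a3, was likewise highest in fibroblast-like cells. Col6a1 had 415 and 30 UMIs, or 826 and 1285 CPM, Col6a2 216 and 11, and Col6a3 148 and 11. Col14a1, which binds to the surface of fibrils, had 235 and 24 there and 10 and 29 in macrophage-like cells. Col16a1 had 42 and 0 UMIs, where a count of 0 allows up to 3 counts, or 128 CPM.

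Virgin fibroblast-like cells with and without a reticular marker UMI were also set apart, a split chosen after the data were seen. Col1a1 stood at 1819 CPM (1608 to 2050) in the 28 cells without and at 1777 (1641 to 1921) in the 36 cells with such a UMI. Lama2 stood at 203 (137 to 290) without and 62.0 (38.9 to 93.9) with, and Col14a1 at 703 (575 to 852) and 369 (309 to 438). The intervals overlapped for Col1a1 and did not for Lama2 and Col14a1.

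Pericyte-like cells had an incomplete fibrillar set. Col1a2 had 60 and 44 UMIs and Col3a1 57 and 58, but Col1a1, the chain present in more than 1 copy in the type I trimer, had 3 and 2. That is 20 (6.52 to 99.7) and 22 (5.74 to 187) Col1a2 UMIs per Col1a1 UMI, against 1.24 (1.14 to 1.36) and 1.59 (1.06 to 2.40) in fibroblast-like cells. Type VI chains showed a like gap, with 59 and 45 UMIs of Col6a1 and 19 and 18 of Col6a2 but 0 and 0 of Col6a3, of which fibroblast-like cells had 0.357 and 0.367 UMIs per Col6a1 UMI. In pericyte-like cells 8 and 10 of the 11 fibroblast markers were at 0, and the markers that were not summed to 199 and 201 UMIs.

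Endocrine cells held single chains of several collagens. Beta-like cells had 744 and 549 Col4a1 UMIs, in 30.1% and 28.0% of cells, or 14.4 (13.4 to 15.5) and 11.8 (10.8 to 12.8) CPM, but 12 and 10 of Col4a2. This was 62.0 (35.3 to 121) and 54.9 (29.6 to 115) Col4a1 UMIs per Col4a2 UMI. In endothelial-like cells the ratio was 1.68 and 1.74, in pericyte-like cells 1.88 and 1.72 and in fibroblast-like cells 2.27 and 2. The pair that starts 21 bases apart was thus counted in beta-like cells at a ratio outside that of every class with both chains abundant.

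Free RNA from lysed cells can enter any droplet, so each endocrine level was set beside the level expected if droplets took up endothelial, pericyte and fibroblast RNA in step with the markers of those cells. For Col4a1 in beta-like cells this expected level was 0.596 and 0.334 CPM, below the observed 14.4 and 11.8. For Col4a2 it was 0.343 and 0.192, near the observed 0.233 and 0.215. In the 727 and 657 beta-like cells with no UMI of those markers, Col4a1 stood at 14.8 and 10.6 CPM, so its level did not fall with the markers. Alpha-like cells had 2.26 and 2.03 CPM. T cell-like cells had 0 Col4a1 UMIs, which allows up to 3 counts, or 5.01 and 17.0 CPM. The virgin bound was below the 14.4 CPM of beta-like cells. The multipara bound was above their 11.8 CPM, so the multipara T cell-like cells could not be told apart from beta-like cells.

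**Figure D3:**
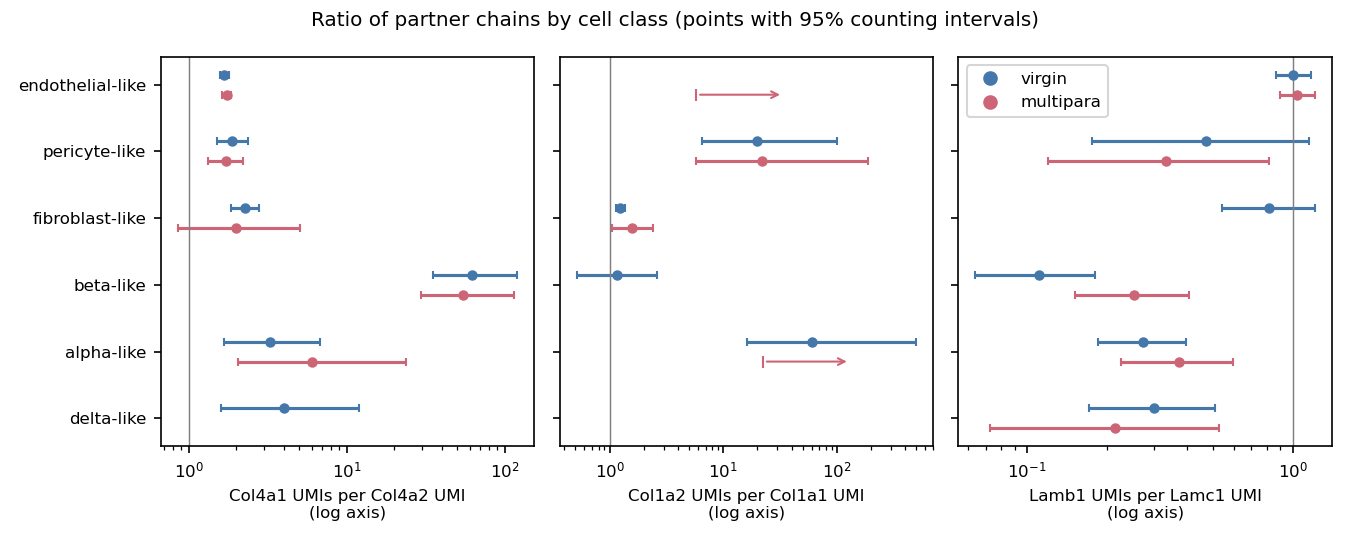
Points give the UMIs of one chain per UMI of a partner chain by cell class and library on log axes, bars give 95% counting intervals, and arrows start at the lower bound where the partner had 0 UMIs. Beta-like cells stand apart in Col4a1 per Col4a2 (62.0 and 54.9), and pericyte- and alpha-like cells in Col1a2 per Col1a1.

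Depth sets how often such a transcript is seen, so cells were also thinned to 2000 UMIs each. Col4a1 was then found in 3.103% (2.34 to 4.03) and 2.19% (1.49 to 3.09) of beta-like and in 0.483% (0.157 to 1.12) and 1.04% (0.420 to 2.14) of alpha-like cells. T cell-like cells had it in 0 of 137 and 0 of 42, and B cell-like cells in 2 of 126 (1.59%, 0.193 to 5.62) and 0 of 33, intervals too wide to separate them from beta-like cells. Median depth before thinning was 29723 and 33218 UMIs in beta-like, 3406 and 3016 in T cell-like and 2623 and 2979 in B cell-like cells.

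Beta-like cells also held type VI chains without Col6a1. Col6a6 had 678 and 557 UMIs, or 13.2 and 12.0 CPM, and Col6a3 had 427 and 617, or 8.29 and 13.3 CPM, but Col6a1 had 2 and 1 and Col6a2 3 and 2. Alpha-like cells had 2 and 3 Col6a3 UMIs and 9 and 5 of Col6a6, and delta-like cells 4 and 4 and 40 and 26. Of all type VI UMIs, 53.9% and 85.2% were in beta-like and 38.6% and 3.78% in fibroblast-like cells, so most type VI transcripts of the islet samples were counted outside the stroma.

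Col6a3 in beta-like cells had the largest ratio upwards among the chains with over 100 UMIs there. Its log2 ratio was 0.68 (0.50 to 0.86), under 2-fold, with UMIs in 16.8% and 27.1% of cells, and in 1.44% (0.932 to 2.11) and 2.82% (2.02 to 3.82) after thinning. It was 11.6 and 17.3 CPM in beta-like cluster 0, 6.16 and 9.47 in cluster 2, 8.23 and 13.9 in cluster 3, and 3.13 and 3.80 in cluster 7, where each interval covered the other value. Cluster 18, of shallow cells, had 4 and 1 UMIs. The level was thus higher in the multipara library in clusters 0, 2 and 3 and also differed among clusters within a library.

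Other chains of beta-like cells were lower. Col11a2, a minor fibrillar chain, had 76 and 80 UMIs, Col20a1 40 and 52 and Col9a2 47 and 38. Lamc1 had 163 and 87 UMIs, or 3.16 and 1.87 CPM, above the 0.0848 and 0.0420 CPM expected from free RNA. In beta-like cells with no endothelial, pericyte or fibroblast marker UMI it stood at 3.83 and 1.74 CPM. T cell-like cells had 6.67 and 17.0 CPM and B cell-like cells 12.1 and 8.10, from few counts. After thinning, 3 of 137 and 2 of 42 T cell-like and 2 of 126 and 1 of 33 B cell-like cells had it. Lamc1 in beta-like cells was thus above the level expected from free vascular and stromal RNA but not above the immune level. Lamb1 had 18 and 22 UMIs and Lama4 1 and 2, so the partners that endothelial-like cells had at like counts were few.

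Alpha-like cells showed another set. Col27a1, a fibrillar collagen of cartilage, had 403 and 337 UMIs, or 23.3 and 28.5 CPM, and delta-like cells had 139 and 101, or 19.6 and 21.8 CPM, against 2.15 and 1.23 CPM in beta-like cells. Lama2 had 220 and 86 UMIs in alpha-like cells, or 12.7 and 7.27 CPM, and 9 and 6 UMIs in beta-like cells. Col26a1 had 134 and 87 in alpha-like and 3 and 1 in beta-like cells. The level expected from free RNA in virgin alpha-like cells was 0.0182 CPM for Col27a1 and 0.0207 for Lama2, far below those observed. T cell-like cells had 5.01 and 5.66 CPM of Col27a1 and 0 Lama2 UMIs, where 0 allows up to 3 counts. Col27a1 was not particular to endocrine cells. It stood at 85.6 and 128 CPM in fibroblast-like and 28.2 and 27.1 in pericyte-like cells. After thinning it was in 4.76% and 7.23% of macrophage-like and 4.93% and 6.41% of alpha-like cells.

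Col1a2 was counted in alpha-like cells without its partner. It had 120 and 84 UMIs, or 6.95 and 7.10 CPM, in 10.2% and 8.97% of cells, while Col1a1 had 2 and 0 and Col3a1 3 and 0. In the virgin library this was 60 Col1a2 UMIs per Col1a1 UMI (16.3 to 501), and in the multipara library, with 0 Col1a1 UMIs, the 95% interval began at 22.3. The cluster led by Ppy and Pyy had 19 and 13 Col1a2 and 1 and 0 Col1a1 UMIs. Beta-like cells had 15 and 6 Col1a2 UMIs, with 1.15 per Col1a1 UMI in the virgin library (0.512 to 2.63), an interval that covered the ratio of fibroblast-like cells.

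**Figure D4:**
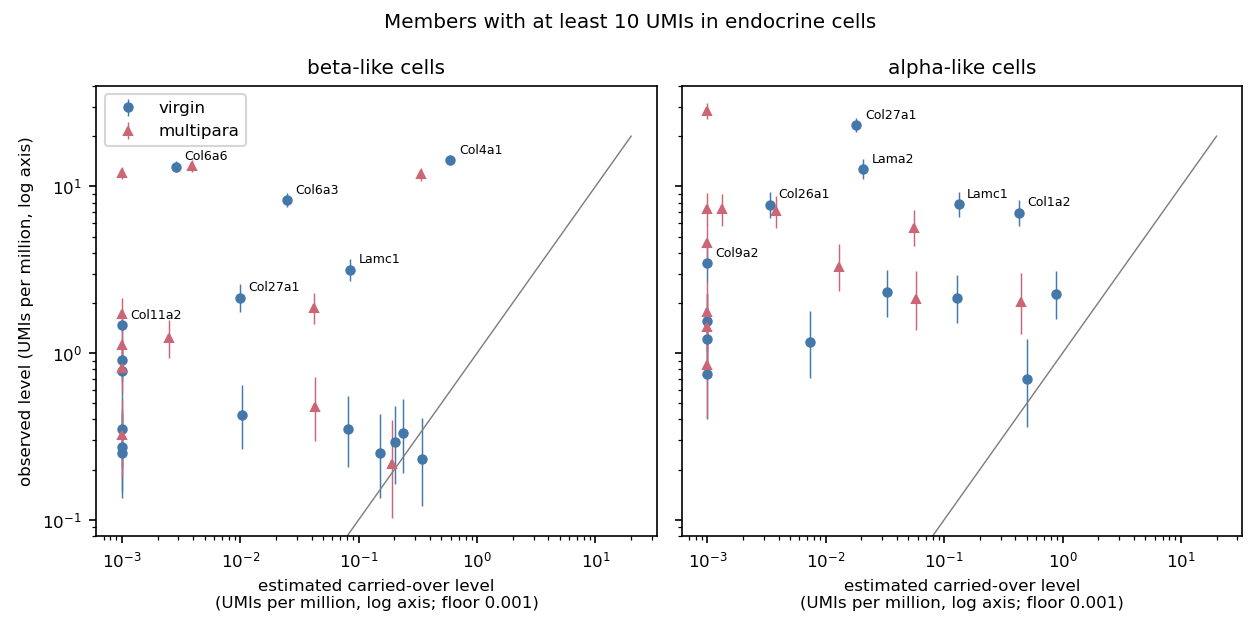
Each point is a chain gene with at least 10 UMIs in beta-like or alpha-like cells of the virgin (circles) or multipara (triangles) library, with its observed level and 95% counting interval against the level expected from free endothelial, pericyte and fibroblast RNA, both in CPM on log axes, and the line marks equality. Col4a1, Col6a3 and Col6a6 in beta-like and Col27a1 in alpha-like cells lie far above the line, and Col4a2 in beta-like cells lies near it.

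With these chains, endocrine cells held 19.5% (18.4 to 20.7) and 58.7% (55.9 to 61.5) of the fibrillar UMIs. Without Col1a2 and Col27a1 they held 5.59% and 29.0%, and fibroblast-like cells 89.7% and 35.3%. Endocrine cells also held 34.1% (32.3 to 35.9) and 25.4% (23.5 to 27.3) of the laminin UMIs, with 481 and 248 in alpha-like, 313 and 228 in beta-like and 136 and 57 in delta-like cells. These include Lamc1, which was above the level expected from free vascular and stromal RNA in alpha-, beta- and delta-like cells of both libraries. Free RNA from endocrine cells is not in that expected level. Immune cells, with few counts, had like levels of it.

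Col8a2 and Col9a2 were spread over the endocrine classes, with Col8a2 at 27 and 21 UMIs in alpha-like and 24 and 9 in delta-like cells, and Col9a2 at 60 and 54 and 55 and 31. Lamb3, a beta chain of epithelial laminin, was highest in lymphocytes, with 25 and 4 UMIs in B cell-like and 16 and 5 in T cell-like cells, against 1 and 1 in beta-like and 9 and 0 in delta-like cells. The 12 and 4 Schwann-like cells had the highest levels of Col9a2 (18 and 5 UMIs), Col12a1 (17 and 3) and Col28a1 (12 and 3) in both libraries and of Col8a1 (24 and 1) in the virgin library.

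Between the libraries, a chain was called when it differed at least 2-fold and had at least 20 UMIs in the class over both. In endothelial-like cells 5 of 17 chains were called, against 4.09% of 8968 genes. Col1a2 (4 and 23 UMIs), Col3a1 (4 and 18) and Col5a3 (5 and 17) were higher in the multipara library, where 1.66% of genes were, and Col18a1 (23 and 11) and Col25a1 (17 and 8) lower, where 2.43% were. The called chains all had few counts, 0 were called among those with at least 50 UMIs, and the median log2 ratio was 0.03 over the chains and -0.04 over all genes. Pericyte markers, all 12 of them with UMIs, summed to 533 and 1718 UMIs in endothelial-like cells (368 and 1083 CPM), and beta markers, all 8 with UMIs, to 16361 and 36377. The 3 erythroid markers had 37 and 7433 UMIs there, with Alas2 at 0 in the virgin library, while Gcg, the glucagon gene of alpha cells, had 9852 and 1964, and the part of these cells in the called chains was not tested. In the 236 and 172 endothelial-like cells with no pericyte or fibroblast marker UMI, chosen after the data were seen, Col1a2 and Col3a1 had 0 UMIs in both libraries. Col5a3 had 4 and 15 UMIs in those cells, under the minimum for a call. The split also lowers the counts and is not a test of why the chains were called.

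**Figure D5:**
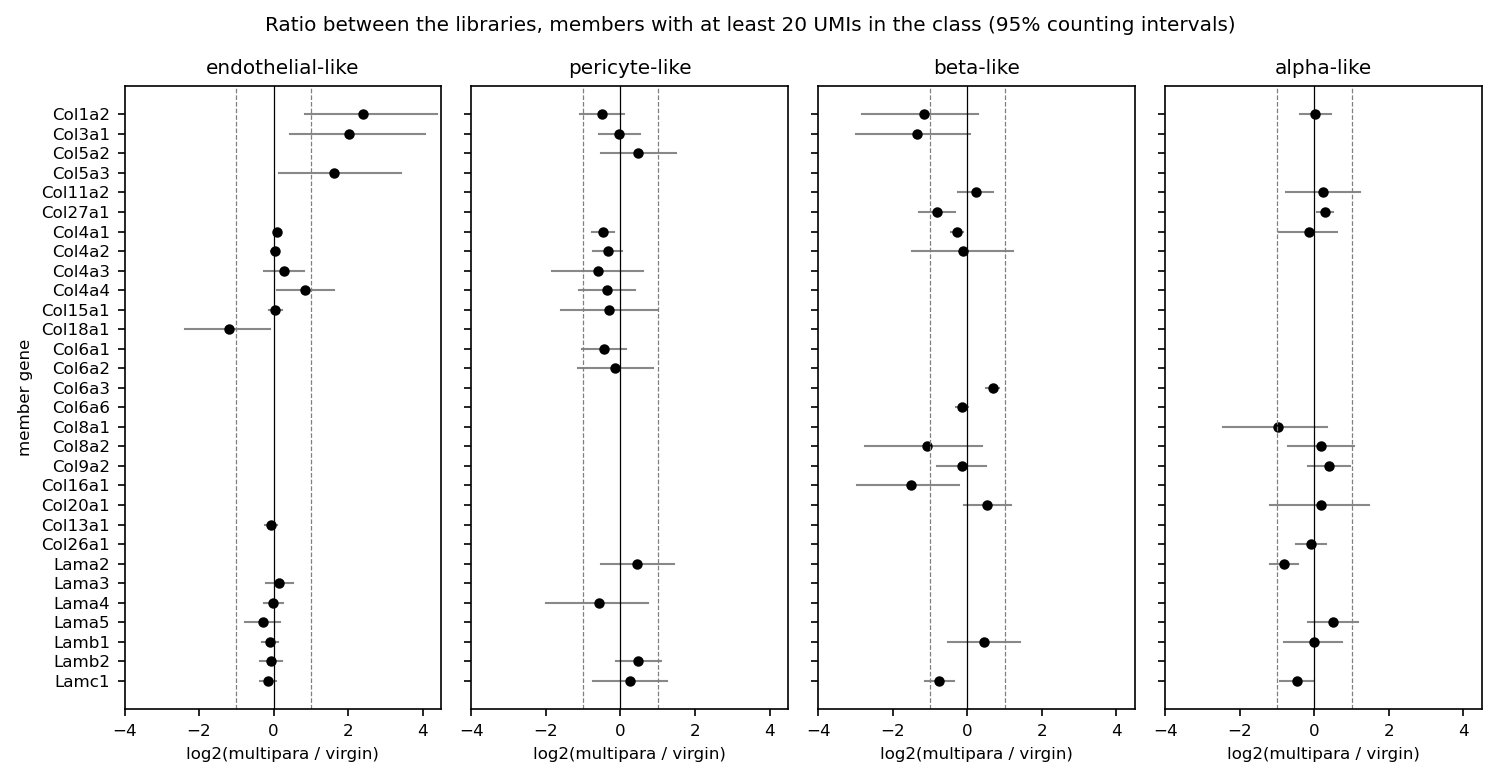
Points give the log2 ratio of multipara over virgin for chain genes with at least 50 UMIs in all and at least 20 in the class, lines give 95% counting intervals and dashed lines mark 2-fold. In endothelial-like cells Col4a1 and Col4a2 lie at 0.08 and 0.03 and the chains past 2-fold have wide intervals, and in beta-like cells Col6a3 lies at 0.68.

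In pericyte-like cells 0 of 14 chains were called, where 5.58% of 3603 genes were (2.69% higher and 2.89% lower). Col4a1 had 228 and 170 UMIs, or 1071 and 768 CPM, and a log2 ratio of -0.48 (-0.77 to -0.19), and the summed type IV chains had -0.42 (-0.64 to -0.21). The 148 and 138 fibrillar UMIs had -0.16 (-0.50 to 0.19), which leaves either sign possible, but cells classed by their marker UMIs alone gave -1.03 (-1.31 to -0.76).

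In fibroblast-like cells 5 of 20 chains were called, against 22% of 3666 genes. Col15a1, Col14a1, Lama2 (52 and 8 UMIs) and Lamb1 (48 and 9) were higher in the multipara library, as were 13.2% of genes, and Lamb2 (63 and 1) was lower, as were 8.76%, so the chains' share was close to that of all genes. TMM scaling moved every fibroblast ratio by -0.72 on the log2 scale, which took Col15a1 to 0.67 and Col14a1 to 0.42, under 2-fold. Lama2, Lamb1 and Lamb2 stayed past 2-fold. The ratios of endothelial-, pericyte-, beta-, alpha- and delta-like cells moved by 0.10 or less. The multipara ratios rest on 6 cells and on the absence of cells with reticular markers.

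In beta-like cells 4 of 16 chains were called, against 4.09% of 12972 genes (1.26% higher and 2.83% lower). All were lower in the multipara library, namely Col1a2, Col3a1 (17 and 6 UMIs), Col8a2 (14 and 6) and Col16a1 (22 and 7), with at most 29 UMIs over both. Reticular markers in beta-like cells moved the same way, with 88 and 8 UMIs. For Col1a2 the level expected from free RNA was 0.204 and 0.0320 CPM, against 0.291 (0.163 to 0.480) and 0.129 (0.0473 to 0.281) observed. For Col3a1 it was 0.239 and 0.0423, against 0.330 (0.192 to 0.528) and 0.129 (0.0473 to 0.281). Both virgin intervals covered the expected level, and both multipara intervals lay above it. The part of reticular cells and of free RNA in the called ratios was not tested. Among chains with over 100 UMIs, Col27a1 had a log2 ratio of -0.81 (-1.30 to -0.34), Lamc1 -0.76 (-1.15 to -0.37), Col4a1 -0.29 (-0.45 to -0.13) and Col6a6 -0.14 (-0.30 to 0.03).

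In alpha-like cells 0 of 14 chains were called, where 2.2% of 12007 genes were (0.625% higher and 1.57% lower). Lama2 had a log2 ratio of -0.81 (-1.19 to -0.44), with 13.4 and 8.42 CPM in alpha-like cluster 1 and 11.6 and 5.96 in cluster 4, and Col27a1 had 0.29 (0.07 to 0.50). In delta-like cells 1 of 9 chains was called, Lamb1 with 19 and 6 UMIs, where 2% of 11603 genes were (0.707% higher and 1.29% lower). Macrophage-like cells had 0 of 2 chains called, where 7.37% of genes were (3.45% higher and 3.93% lower). Lamb3 was the only chain tested in lymphocytes and was not called in T cell-like cells, where 13% of genes were (5.36% higher and 7.66% lower), or in B cell-like cells, where 13.4% were (4.13% higher and 9.29% lower).

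Genes that fold and cross-link collagen were followed as a list. In endothelial-like cells 0 of 13 were called, where 4.09% of 8968 genes were, with a median log2 ratio of -0.07 against -0.04 over all genes. Serpinh1, the collagen chaperone HSP47, had 739 and 772 UMIs there, 126 and 145 in pericyte-like cells and its highest level, 1162 and 1584 CPM, in fibroblast-like cells. Pcolce, which enhances the trimming of fibrillar procollagens, had the order of the fibrillar chains, 726 and 1370 CPM in fibroblast-like, 178 and 181 in pericyte-like and 7.61 and 6.30 in endothelial-like cells. P4hb, a subunit of prolyl hydroxylase, had 205 and 230 endothelial UMIs. Of 14 list genes tested in fibroblast-like cells 4 were called higher and 1 lower, against 13.2% and 8.76% of all genes. In beta-like cells 2 of 14 were called lower, against 2.83% of all genes, and in delta-like cells 2 of 13, against 1.29%. The 8 tested in pericyte-like and 12 in alpha-like cells gave 0 calls, where 5.58% and 2.2% of genes were called.

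Of 8 other basement membrane genes tested in endothelial-like cells 1 was called, lower, and the median log2 ratio was 0.01. Of all genes in the class, 4.09% were called and 2.43% were lower. Hspg2, encoding perlecan, had 917 and 927 endothelial UMIs and 2 and 3 in pericyte-like cells, whereas Nid1, which links laminin to type IV collagen, had 499 and 651 and 37 and 35. Sparc, a collagen-binding protein, was at 2331 and 2307 CPM in endothelial-like and higher, at 3096 and 4367, in fibroblast-like cells. The gene called was Pxdn, whose enzyme cross-links type IV collagen, at 54 and 24 UMIs, where the log2 ratio was -1.30 (-2.06 to -0.58). Of 6 tested in fibroblast-like cells 2 were called higher, Hspg2 and Smoc2, against 13.2% of all genes. Of 2 tested in delta-like cells Sparc was called lower, against 1.29%. The 3 tested in pericyte-like, 6 in beta-like and 6 in alpha-like cells gave 0 calls, where 5.58%, 4.09% and 2.2% of genes were called.

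Of 7 chain receptors tested in endothelial-like cells 0 were called, against 4.09% of all genes, with a median log2 ratio of 0.03. Itga1, part of a collagen receptor, stood at 421 and 409 CPM in endothelial-like and 615 and 515 in pericyte-like cells, its partner Itgb1 at 424 and 443 and 606 and 488, and Bcam, which binds Lama5, at 273 and 257 and 371 and 375. Both vascular classes thus carried the receptors beside the chains. Of 4 tested in fibroblast-like cells Ddr2 was called lower, against 8.76% of all genes.

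Interstitial matrix genes followed the fibroblast-like cells, with 4677 and 406 Dcn UMIs and 592 and 64 of Lum, while Bgn was also in pericyte-like cells (191 and 141). In fibroblast-like cells, 6 of them multipara, 1 of 8 genes was called higher and 1 lower, against 13.2% and 8.76% of all genes. Lum was higher in the multipara library in CPM (log2 ratio 1.22, 0.82 to 1.59) and Fn1 lower (132 and 2 UMIs). The TMM shift of -0.72 takes Lum under 2-fold. In beta-like cells 3 of 3 genes, Fn1, Dcn and Vcan, were called lower, against 2.83% of all genes. In endothelial-like cells 1 of 4 was called, against 4.09% of all genes (2.43% lower). It was Fbln2, at 129 and 38 UMIs, where the log2 ratio was -1.90 (-2.46 to -1.36). Of 5 lymphatic markers 4 and 2 had UMIs in endothelial-like cells, 303 and 357 in sum, with Lyve1 and Mmrn1 at 0 in the multipara library, and reticular markers had 159 and 4. Their part in the Pxdn and Fbln2 ratios was not tested.

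Among turnover genes 0 of 4 were called in endothelial-like cells, against 4.09% of all genes. Timp3, a protease inhibitor held in the matrix, had 4842 and 7348 endothelial UMIs, or 3348 and 4632 CPM, and a log2 ratio of 0.47 (0.42 to 0.52). Adamts1, a matrix protease, had 1113 and 1348 endothelial UMIs, and 229 and 1 in fibroblast-like cells, where it was called lower in the multipara library. Of 6 turnover genes tested in fibroblast-like cells, 3 were called higher, Mmp2 (145 and 14 UMIs) among them, and 1 lower. Of all genes in that class, 13.2% were called higher and 8.76% lower. The TMM shift of -0.72 takes Mmp2 under 2-fold. Timp2 had 381 UMIs over endothelial-, pericyte- and fibroblast-like cells of both libraries. Of 5 tested in delta-like cells Mmp14 was called higher, against 0.707% of all genes.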

How the data were processed

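Deposited values were UMI counts per gene and droplet, 1 matrix per library, produced by the authors in Cell Ranger 3.1.0 against GRCm38 (mm10), with Seurat 3.0 also named in the submitters' processing notes. Droplets with over 200 and under 6000 genes, under 60000 UMIs and under 10% mitochondrial UMIs were kept, as in the study's methods, and 61 and 44 doublets called by Scrublet (1.39% and 1.30%) were removed, which left 4330 of 5463 virgin and 3330 of 5075 multipara barcodes. Both libraries were clustered together in scanpy 1.11.5 (2000 variable genes, 30 components, 20 neighbours, Leiden resolution 1) without the chain genes. A cluster was named where at least 3 markers of a class were among its top 50 genes by fold, and the one led by Ppy and Pyy had 2.

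Counts were summed per class and library. Intervals are 95% and exact (Poisson for levels, Clopper-Pearson for shares, conditional binomial for ratios), cover counting error only, and were tested on simulated data. UMIs tag 3′ ends and are not per length, so a ratio of chains is compared between classes and is not read as a ratio of molecules. The level expected from free RNA was the median level of a source class's markers in the endocrine class, as a fraction of their source level, times the chain's source level, summed over the sources. Endocrine cells were not a source, so a level above it can still hold free RNA of other endocrine cells. The median was 0 for pericyte and fibroblast markers in multipara alpha- and delta-like cells. Single markers went higher, with Cldn5 in virgin beta-like cells at 0.771% of its endothelial level against a median of 0.0301%. Same-strand exons of other genes overlapped Col3a1 (141 bases), Col20a1 (79) and Col7a1 (36), whose counts are uncertain to that extent.

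Named genes were the chains with at least 50 UMIs, of which 1 is in the sums and counts but is not reported here by itself or in the figures, the 3 most abundant genes of each partner list in vascular and stromal cells, and partners past 2-fold with at least 100 UMIs. Chains under 50 UMIs given with values, and Pxdn, were added after their values were seen. The members, lists and markers were chosen with earlier results of these data known. Alternatives covered the cell filter, doublets, clustering, marker-based classes, cell weighting, UMI minimums and TMM scaling (edgeR 4.0.16).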

Additional observations from a re-analysis of the deposited data

Results flagged for a closer look

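The droplets left out by the cell filter, 1072 virgin and 1701 multipara, entered no comparison and still held chain transcripts. They had 988 UMIs (102 CPM, 95.8 to 109) in the virgin library, and the multipara droplets had 912 UMIs (73.9 CPM, 69.2 to 78.9). Type IV chains gave 261 and 188 of these, laminins 217 and 126 and fibrillar chains 166 and 167. They are listed because data outside the comparisons held a signal above the 3 counts that a count of 0 allows.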

How the results depend on the processing

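The endothelial type IV and pericyte fibrillar ratios kept their sign under every alternative that gave a value. With all deposited barcodes the multipara endothelial share of type IV collagen was 80.1% and the endothelial type IV log2 ratio 0.31, and that ratio was 0.20 with doublets kept. In endothelial-like cells without a pericyte or fibroblast marker UMI, chosen after the data were seen, it was 0.0084 and 0 chains were called. Counts are lower in that setting, and Col5a3 fell under the minimum of 20 UMIs. Endothelial calls numbered 0 with at least 50 UMIs and 9 with no minimum. The virgin endocrine share of laminin was 32.0% with the chain genes in the clustering and 31.8% with the libraries clustered separately. Classes set by marker UMIs gave endothelial type IV shares of 64.7% and 75.6%, a virgin fibroblast fibrillar share of 58.5% and a pericyte fibrillar log2 ratio of -1.03. The causes of these moves were not tested. Single-chain ratios changed sign for 10 of 32 under TMM scaling (up to 0.68 in size), 4 of 32 with cells weighted equally (0.34), 3 of 32 with marker-based classes (0.54), 2 of 32 with doublets kept (0.07), 3 of 12 with all barcodes (0.15) and 2 of 16 in fibroblast-like cells without reticular marker UMIs (0.80), a setting chosen after the data were seen, in which 6 of 38 levels moved over 1.5 times, among them virgin Lama2 (1.96 times). With all barcodes, and for virgin cells clustered separately, no cluster could be named pericyte- or fibroblast-like, and multipara fibroblast-like cells had none when clustered separately, so these gave no value. Depth limits the multipara Schwann-like (14663 UMIs in all) and fibroblast-like cells (23355). No paired analysis was possible because each group had 1 library.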
